A study of Mus musculus with 2 samples.

Results

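Late mouse gastruloids were searched for cells that still carry the transcripts of naive pluripotency. Members were 10 genes chosen by name, Nanog, Esrrb, Klf2, Klf4, Zfp42, Dppa3, Dppa4, Dppa5a, Tdh and Morc1, each matched by its symbol to 1 of the 32285 genes in the count matrices. Gastruloids are aggregates of embryonic stem (ES) cells that form embryo-like tissues in culture. Both libraries came from E14_triple reporter ES cells in which the endogenous Zeb2 protein carries an HA-FKBP12F36V degron tag, so the control cells carry the tag too. Aggregates of 300 cells received 3 µM CHIR99021 from 48 h and 10% Matrigel at 96 h. One library was untreated, and the other received 100 nM dTAG-13, a small molecule that directs FKBP12F36V-tagged proteins to degradation, at 72 and 96 h. The control is labelled untreated, although the design text of the series speaks of DMSO. Each library pooled about 32 gastruloids, whose age at harvest the labels do not state. With 1 library per condition no difference between them could be tested, and every interval below is a 95% interval that covers counting error only.

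Naive pluripotency is the state of the preimplantation epiblast and of mouse ES cells kept without differentiation cues. A network of transcription factors holds it, and most of that network is shut down as the epiblast implants and its cells become competent to form germ layers. Nanog, Esrrb, Klf2 and Klf4 are transcription factors of the network. Zfp42, also called Rex1, encodes a zinc finger protein whose reporter alleles are widely used to read the naive state. Dppa3 (Stella) protects DNA methylation in the early embryo and marks primordial germ cells, Dppa4 encodes a chromatin protein that pairs with Dppa2, and Dppa5a encodes an RNA-binding protein. Tdh encodes threonine dehydrogenase, a mitochondrial enzyme on which mouse ES cells depend, and Morc1 encodes an ATPase that represses transposons in the male germ line. Zeb2, the tagged protein, is a repressor that binds E-boxes.

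After filters on genes detected, mitochondrial share and doublet score, 6231 untreated and 6688 dTAG-13 cells were kept, with 139789265 and 152068002 unique molecular identifiers (UMIs) and medians of 20049 and 20226 UMIs per cell. Among kept cells, 9 barcodes occurred in both libraries. There were 61 untreated and 88 dTAG-13 cells of over 60000 UMIs, and 3 and 43 of these carried at least 5 members. The Zeb2 transcript itself stood at 67.8 CPM (UMIs scaled to the library's total; interval 66.5 to 69.2) untreated and at 94.8 CPM (93.2 to 96.3) with dTAG-13. The degron acts on the protein, so this transcript does not check the treatment.

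In GRCm38 (GENCODE M21) the transcription factor genes lie at chr6:122707489-122714633 (Nanog, plus strand), chr12:86361117-86521628 (Esrrb, plus), chr8:72319033-72321656 (Klf2, plus) and chr4:55527143-55532466 (Klf4, minus). Zfp42 lies at chr8:43295063-43306980 (minus). Dppa3 lies at chr6:122626410-122630272 (plus), 77.2 kb from Nanog. Dppa4 at chr16:48283733-48294237 (plus) and Morc1 at chr16:48431237-48630900 (plus) are 137 kb apart. Dppa5a lies at chr9:78367052-78368177 (minus) and Tdh at chr14:63492347-63509092 (minus).

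RefSeq promoter windows of 300 bases (GRCm38.p6) were matched for 5 members, namely Nanog, Zfp42, Esrrb, Klf2 and Klf4. Windows of Nanog and Zfp42 are shown because these were the members with windows that held both the octamer core TTTGCAT, read by Pou5f1, and CACCTG, the E-box letters bound by the ZEB family. Capitals mark these motifs on either strand, the SOX core ACAATG in Nanog, and CCGCCC, a GC box of the kind KLF factors bind, in Zfp42.
Nanog, chr6:122707239-122707538, plus strand: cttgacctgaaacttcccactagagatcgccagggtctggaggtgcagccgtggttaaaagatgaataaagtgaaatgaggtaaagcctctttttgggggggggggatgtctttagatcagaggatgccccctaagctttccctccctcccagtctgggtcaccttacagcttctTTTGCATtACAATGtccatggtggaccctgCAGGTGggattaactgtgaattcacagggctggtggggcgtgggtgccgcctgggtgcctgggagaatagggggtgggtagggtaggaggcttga
Zfp42, chr8:43306960-43307259, minus strand: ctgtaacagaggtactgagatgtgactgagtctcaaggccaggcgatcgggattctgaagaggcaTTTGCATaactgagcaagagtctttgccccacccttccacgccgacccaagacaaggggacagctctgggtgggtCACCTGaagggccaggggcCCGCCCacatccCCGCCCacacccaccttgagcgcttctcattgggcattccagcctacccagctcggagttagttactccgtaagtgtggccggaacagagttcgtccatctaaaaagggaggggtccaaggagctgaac
Nanog has 2 RefSeq starts, and the window of the earlier one is shown. In it the octamer core began 75 bases before the start and the SOX core 67 bases before it, 1 base apart from each other, and the E-box lay on the opposite strand. From the later start the octamer core and SOX core lay 151 and 143 bases before it. In the Zfp42 window the octamer core began 185 bases and the E-box 110 bases before the start. Over all 32851 promoter windows and both strands, TTTGCAT occurred in 4.63%, ACAATG in 12.6%, CACCTG in 20.2% and CCGCCC in 35.7%. The letters AAGGTCA, read by Esrrb, occurred in 4.72% of all windows and in none of the members' windows. These are matches of letters, and no binding was measured.

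Summed over all kept cells, Dppa5a was the most abundant of the 10 transcripts and Esrrb the least. Dppa5a stood at 422 CPM (418 to 425) untreated and at 482 CPM (478 to 485) with dTAG-13. Zfp42 stood at 57.8 and 80.0 CPM, Klf2 at 53.4 and 76.9 CPM, and Tdh at 47.6 and 59.6 CPM. These 3 formed a middle tier about an order of magnitude below Dppa5a. Morc1 followed at 23.0 and 24.1 CPM, Dppa3 at 21.5 and 30.5 CPM and Nanog at 14.5 and 22.5 CPM. Dppa4 stood at 11.8 and 16.0 CPM, Klf4 at 7.75 and 8.84 CPM, and Esrrb at 2.83 (2.56 to 3.13) and 4.62 CPM (4.29 to 4.98). The order was alike in both libraries except that Dppa3 stood above Morc1 with dTAG-13. In the untreated library Morc1 and Dppa3 were the closest neighbours, with intervals of 22.2 to 23.8 and 20.7 to 22.3 CPM that touched. The libraries count 3′ ends, so these levels compare UMIs and not lengths of transcript.

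These sums came from a small fraction of cells. In the untreated library 2985 cells carried no UMI of any member and 1948 carried 1 member, so 79.2% of cells had at most 1. The count then fell to 40 cells with 5 members and climbed again to 157 cells with 9 and 68 cells with all 10. In the dTAG-13 library 2491 cells had none and 1969 had 1, together 66.7%. The low point there was 91 cells with 6 members, followed by 181 cells with 9 and 118 with all 10. Both distributions therefore had a second mode at 9 members, which the plot of members per cell shows.

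**Figure D1:**
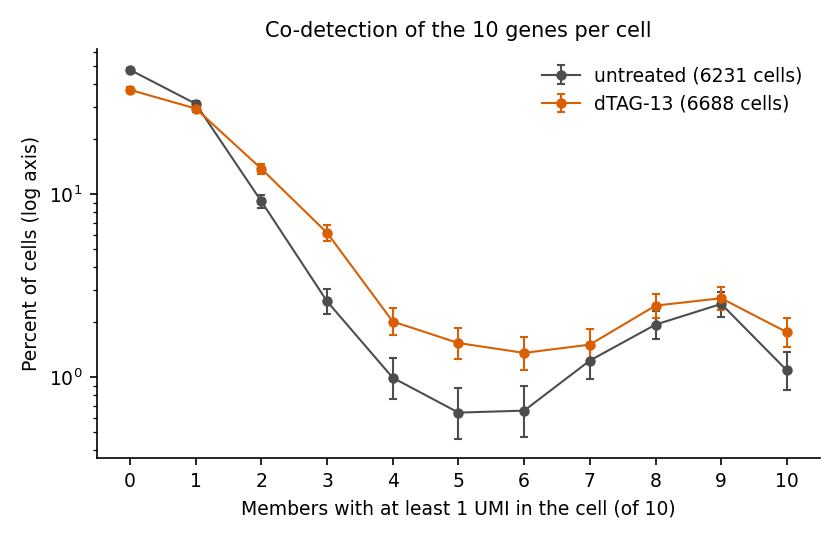
Percent of kept cells (log axis) against the number of the 10 members with at least 1 UMI, for the untreated library (grey, 6231 cells) and the dTAG-13 library (orange, 6688 cells). Bars are exact binomial 95% intervals; both lines fall to a low point at 5 or 6 members and rise to a second mode at 9.

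Cells with at least 5 of the 10 members are called co-detecting here. They numbered 504 of 6231 untreated cells, 8.09% (7.42 to 8.79, Clopper-Pearson), and 759 of 6688 dTAG-13 cells, 11.3% (10.6 to 12.1), a difference of 3.26 percentage points (2.23 to 4.29). These shares depend on depth, since co-detecting cells had medians of 26305 and 27673 UMIs against 19570 and 19492 in the other cells. With every cell thinned to 5000 UMIs, which leaves out 87 and 81 shallower cells, the shares were 6.05% (5.47 to 6.68) and 7.08% (6.48 to 7.73), a difference of 1.03 points (0.16 to 1.90). At 7 or more members the shares were 6.79% and 8.45%, 1.66 points apart, and with cells of over 60000 UMIs left out they were 8.12% and 10.8%, 2.73 points apart. The dTAG-13 share was the higher one under each of these rules, by amounts that ran from 1.03 to 3.26 points.

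In proportion, the dTAG-13 excess was larger for cells with 5 or 6 members than for those with 7 or more. Cells with 5 or 6 members made up 1.3% (1.03 to 1.61) of untreated cells and 2.90% (2.51 to 3.33) of dTAG-13 cells, 81 and 194 in number. They differed in makeup from the cells with more members. Of them, 38.3% and 51.5% had at least 3 UMIs of Pim2, a kinase gene high in the epiblast-like epithelium of these gastruloids, against 9.46% and 11.3% of cells with 7 or more members. Pou3f1, a transcription factor of the formative epiblast, stood at 99.5 and 106 CPM in the cells with 5 or 6 members and at 18.2 and 28.6 CPM in the others. Dppa5a was lower in them, at 1288 and 674 CPM against 4452 and 3446 CPM. Sorting cells by their number of members, Dppa5a among them, partly fixes this gap.

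In co-detecting cells the members stood far above their level elsewhere, which the choice of these cells fixes and which is given as a description. Of each member's UMIs, between 68.7% (Klf4) and 97.7% (Tdh) lay in co-detecting cells of the untreated library, and between 66.3% (Nanog) and 97.2% (Morc1) in those of the dTAG-13 library. Tdh and Morc1 were the members held most completely by these cells in both libraries, with 97.7% and 96.0% for Tdh and 97.3% and 97.2% for Morc1. The lowest parts untreated were those of Klf4 (68.7%), Dppa4 (77.8%) and Nanog (78.4%), and with dTAG-13 those of Nanog (66.3%) and Klf4 (71.9%). Klf2 moved most between the libraries, from 92.1% to 78.5%.

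Where cells carried 1 member, it was most often Dppa5a. Of cells with 1 member, that member was Dppa5a in 58.0% of untreated and 49.1% of dTAG-13 cells, and 76.2% and 78.6% of those cells held 1 UMI of it. Zfp42 was the lone member in 9.91% and 10.3%. Klf2 was the lone member in 7.44% and 12.1%, and Nanog in 4.77% and 8.74%. Lone Klf2 and Nanog thus took a larger part of such cells with dTAG-13.

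Across the 45 pairs of members, thinned cells carried both genes of a pair more often than the product of the 2 shares, by a median of 8.06 times in the untreated and 5.15 times in the dTAG-13 library. The pair of Esrrb and Morc1 had the highest ratio in both, 12.7 and 10.8. Pairs with Dppa5a had the lowest, 3.77 for Klf4 with Dppa5a untreated and 2.89 for Nanog with Dppa5a with dTAG-13. The larger share of a pair caps its ratio, so pairs of rare members can reach higher values. Dppa5a, found in most cells, 17.5% and 20.5% of thinned cells, has the lowest cap. Shares differed between the libraries, so the medians do not compare how strongly members occur together.

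To look at the members in cells not picked by them, a second gate used 6 other naive genes, Tfcp2l1, Nr0b1, Fbxo15, Gdf3, Tcl1 and Nr5a2. Cells with at least 2 of these numbered 440 untreated (7.06%; 6.44 to 7.73) and 640 dTAG-13 cells (9.57%; 8.87 to 10.3). This gate is meant to hold the naive cells that persist in the gastruloids. Of the naive-gated cells, 93.9% and 92.7% were also co-detecting, and of the co-detecting cells 81.9% and 78.1% were naive-gated. Among cells with none of the 6 genes, 0.670% and 1.20% were co-detecting. A naive-gated cell carried a median of 9 members untreated and 8 with dTAG-13, and 66 and 117 cells carried all 10.

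Within the naive gate every member was present in both libraries, at levels that spanned 2 orders of magnitude. Dppa5a stood at 4213 CPM untreated and 3124 CPM with dTAG-13. Zfp42 stood at 585 and 512 CPM, Klf2 at 507 and 381 CPM, and Tdh at 491 and 385 CPM. Morc1 (230 and 160 CPM), Dppa3 (222 and 187 CPM) and Nanog (120 and 99.2 CPM) followed. Dppa4 stood at 91.3 and 86.3 CPM, Klf4 at 56.7 and 44.2 CPM and Esrrb at 29.0 and 29.6 CPM. The untreated order matched that over all cells, as the plot of both sets of levels shows, while with dTAG-13 Tdh stood beside Klf2 and Dppa3 above Morc1.

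**Figure D2:**
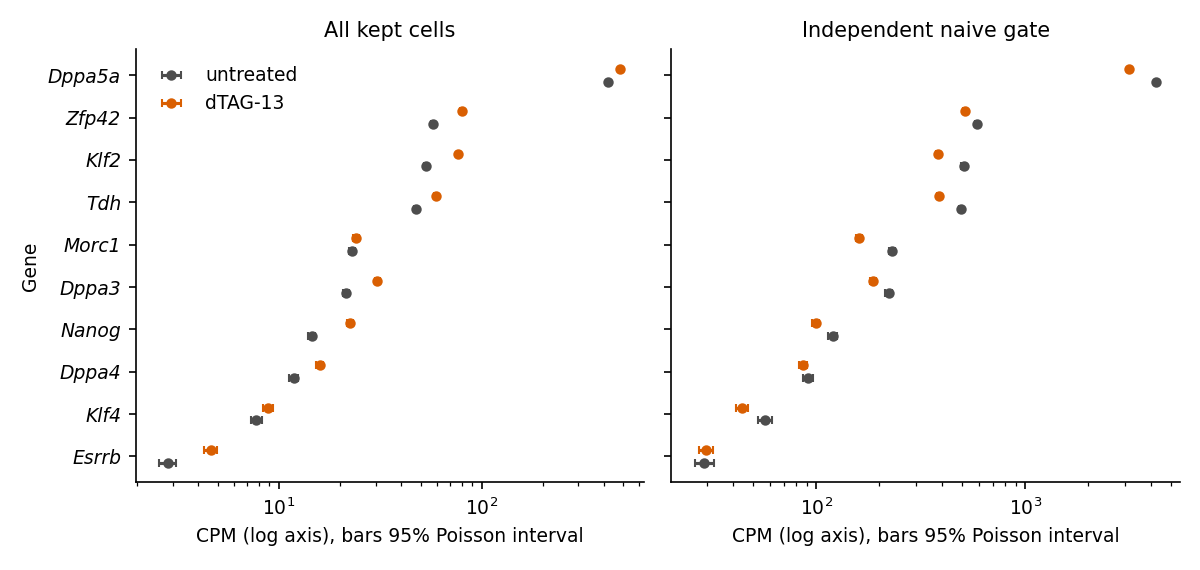
Level of each member in CPM (log axis) over all kept cells (left) and in the independent naive gate (right), untreated in grey and dTAG-13 in orange, with exact Poisson 95% intervals. Over all cells the dTAG-13 points lie to the right, while in the naive gate they lie to the left for each member except Esrrb.

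Members varied from cell to cell within the gate, and Dppa3 had the largest excess of cells without a UMI over a Poisson draw. Dppa3 had no UMI in 32.0% of untreated and 31.7% of dTAG-13 naive-gated cells. Such a draw at the mean level and each cell's own depth would leave 0.80% and 1.63% without one. Klf4 showed a milder gap, with no UMI in 49.5% and 53.1% against 22.8% and 29.0%. Esrrb, in contrast, was absent from 51.1% and 49.1% of these cells against 45.5% and 42.3% for a Poisson draw, close to that draw. Dppa4 lay between, at 19.7% of dTAG-13 cells against 10.8%.

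Naive-gated cells with Dppa3 also carried more of several other members. In the untreated library the 299 cells with Dppa3 had 1.41 times (1.23 to 1.62) the Dppa4 level of the 141 without, and 1.32 times (1.25 to 1.40) the Zfp42 level. In the dTAG-13 library, with 437 and 203 such cells, the ratios were 1.33 (1.20 to 1.49) for Dppa4 and 1.28 (1.23 to 1.34) for Zfp42. Klf4 did not follow: its ratio was 1.08 (0.92 to 1.28) untreated and 0.62 (0.54 to 0.71) with dTAG-13. Nanog, at 1.11 (0.99 to 1.25) and 1.06 (0.97 to 1.17), did not clearly follow either. The same held for Esrrb, at 1.19 (0.94 to 1.51) and 0.95 (0.79 to 1.13). Morc1 was at 1.05 (0.97 to 1.14) untreated and 1.17 (1.09 to 1.27) with dTAG-13. Median depths were close, 27601 against 25971 UMIs untreated and 28896 against 26247 with dTAG-13.

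Zfp42 and Dppa5a were the pair that varied most closely together, with Pearson coefficients of 0.66 over 440 untreated and 0.77 over 640 dTAG-13 naive-gated cells on log counts per 10000. The median over all 45 pairs was 0.27 and 0.34. Cells of a library share its depth and free RNA, so these are descriptions.

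**Figure D3:**
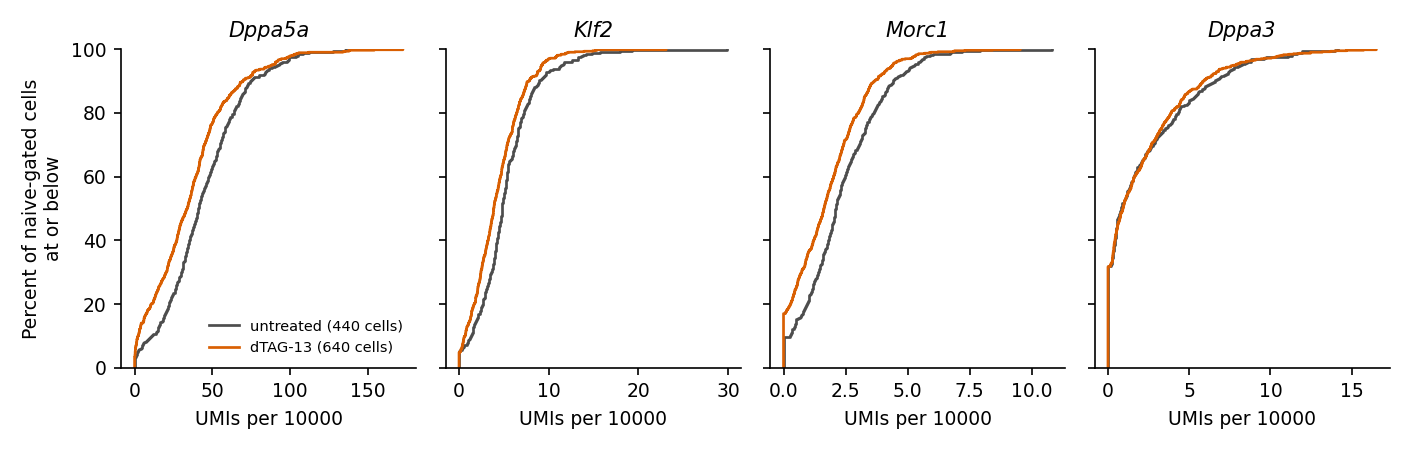
Cumulative percent of naive-gated cells against UMIs per 10000 for Dppa5a, Klf2, Morc1 and Dppa3, untreated in grey (440 cells) and dTAG-13 in orange (640 cells). The dTAG-13 curves of the first 3 genes lie to the left at most levels, while the Dppa3 curves both start at about 32% of cells with none.

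Cells gated by genes of other lineages served to measure the background, although the Pim2 and Sfn gates also took in naive-gated cells. A cell was gated by at least 3 UMIs of Meox1 (somite), Tbx6 (presomitic mesoderm), Sox17 (endoderm and endothelium), Pim2 (epiblast-like epithelium) or Sfn (non-neural ectoderm). Each gate was read against a list of 5 markers by how many were over 2-fold above their level in the whole library. Except for the endothelial list, each list holds the gene of its gate, which is high there by the choice of cells. All 5 somite markers were so in Meox1-gated cells of both libraries, as were all 5 presomitic markers in Tbx6-gated cells. In Sox17-gated cells 5 untreated and 4 dTAG-13 endoderm markers passed 2-fold and all 5 were above the library level in both. Of the endothelial markers 4 and 1 passed it there, and 4 were above the library level in both. In Pim2-gated cells 4 and 2 epiblast-like markers passed it, and in Sfn-gated cells 5 and 4 ectoderm markers did. All 5 of each list were above the library level in both libraries. The 2 epiblast-like markers with dTAG-13 were Pim2 itself and Pou3f1. A list of 8 naive markers held the 6 genes of the naive gate, Pou5f1 and Sox2. Of these, 3 untreated and 1 dTAG-13 passed 2-fold in Pim2-gated cells, and 6 and 0 in Sfn-gated cells. In the Meox1, Tbx6 and Sox17 gates none did. Of Pim2-gated cells 24.6% and 15.6% were also naive-gated, and of Sfn-gated cells 25.1% and 11.7%. In all, 45 of 1478 gated untreated cells and 128 of 2173 gated dTAG-13 cells were in more than 1 gate.

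Mesoderm and Sox17 gates held few co-detecting cells, while the Pim2 and Sfn gates held many. Of Meox1-gated cells 2 of 779 untreated and 23 of 520 dTAG-13 cells were co-detecting. Of Tbx6-gated cells the counts were 0 of 274, which allows a share of up to 1.09% (3 counts of the total), and 3 of 81. Of Sox17-gated cells they were 0 of 77, which allows up to 3.90%, and 5 of 119. Among the dTAG-13 cells, 18 of the 23 in the Meox1 gate, 2 of the 3 in the Tbx6 gate and 4 of the 5 in the Sox17 gate had over 60000 UMIs. With no barcodes removed for their doublet score, the Meox1 counts were 11 of 922 and 43 of 604. With cells thinned to 5000 UMIs there was no co-detecting cell in these 3 gates in either library. Pim2-gated cells were co-detecting in 71 of 167 untreated (42.5%; 34.9 to 50.4) and 164 of 629 dTAG-13 cells (26.1%; 22.7 to 29.7). Sfn-gated cells were co-detecting in 66 of 227 (29.1%; 23.3 to 35.4) and 134 of 967 (13.9%; 11.7 to 16.2). With cells thinned to 5000 UMIs these counts were 27 (16.2%; 10.9 to 22.6) and 24 (3.82%; 2.46 to 5.62) in the Pim2 gate, and 47 (20.7%; 15.6 to 26.6) and 62 (6.43%; 4.97 to 8.17) in the Sfn gate.

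With co-detecting cells left out, most members lay near or under 1% of their co-detecting level in the mesoderm and Sox17 gates. In Meox1-gated cells the median over members was 0.427% of the co-detecting level untreated and 0.763% with dTAG-13. In Tbx6-gated cells it was 0.383% and 1.39%, and in Sox17-gated cells 0.466% and 1.07%. Dppa5a, the most abundant member and so the best measured, stood at 17.1 and 18.8 CPM in Meox1-gated cells and was found in 9.30% and 9.68% of them after thinning. Its percent of the co-detecting level ran from 0.427% (0.382 to 0.476) in the Meox1 gate to 0.785% (0.596 to 1.01) in the Sox17 gate untreated. With dTAG-13 it ran from 0.677% (0.593 to 0.770) to 0.939% (0.747 to 1.17). Leaving out co-detecting cells, which the members pick, can lower these values. With those cells kept, the medians were 0.565% and 3.12% in the Meox1 gate and 0.383% and 2.64% in the Tbx6 gate. In the Sox17 gate they were 0.466% and 7.22%. Dppa5a in Meox1-gated cells then stood at 23.9 and 96.4 CPM. How much of these levels came from RNA free in the suspension was not tested.

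With co-detecting cells left out, some members stood above the Dppa5a ratio, with intervals that did not overlap its own. Klf4 did so in each of these 3 gates of both libraries: in Meox1-gated cells it held 6.15% (4.69 to 7.94) and 7.23% (5.01 to 10.1) of its co-detecting level, at 3.30 and 2.81 CPM. Klf4 also acts in epithelia outside pluripotency. Dppa4 held 3.22% (2.43 to 4.19) and 2.76% (1.83 to 4.00) in Meox1-gated cells. Nanog stood above the Dppa5a ratio in Sox17-gated cells, at 4.74% (2.27 to 8.74) and 10.8% (7.34 to 15.4) from 10 and 31 UMIs. In Meox1-gated cells Nanog had 9 and 2 UMIs. Klf4 had the highest ratio in Sox17-gated cells, 6.06% and 12.3%. Zfp42 stood above the Dppa5a ratio in Meox1-gated cells of both libraries, at 3.91 and 4.65 CPM, and in untreated Tbx6-gated cells, at 5.94 CPM. In dTAG-13 Tbx6-gated cells Klf2 did so, at 12.5 CPM from 31 UMIs. At the low end, Tdh held 0.231% and 0.390% in Meox1-gated cells. Esrrb had 0 UMIs in untreated Tbx6-gated and Sox17-gated cells, where 3 counts would be 0.43 and 1.62 CPM.

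**Figure D4:**
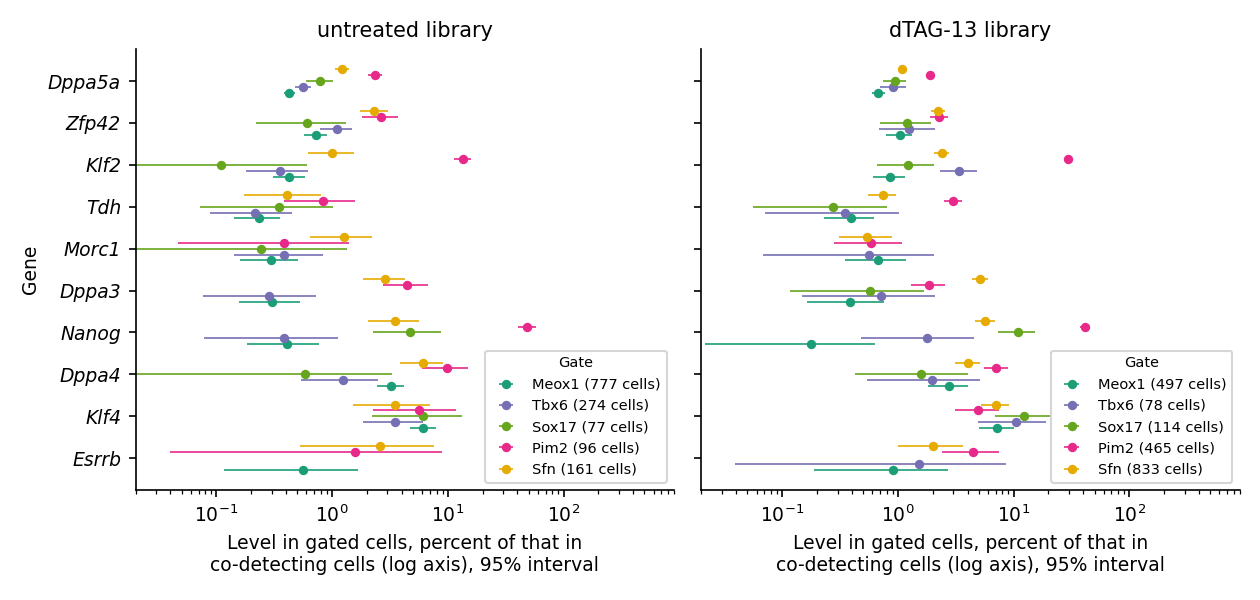
Level of each member in gated cells as a percent of its level in co-detecting cells of the same library (log axis), with co-detecting cells left out of the gates and 95% intervals from counts; members with 0 UMIs are not drawn and intervals are clipped at the left edge. Nanog in Pim2-gated cells of both libraries and Klf2 in those of the dTAG-13 library lie to the right of the other points.

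In Pim2-gated cells outside the co-detecting class, which by that choice carry at most 4 members, Nanog and Klf2 stood closest to their co-detecting levels. Nanog stood at 55.3 CPM (46.1 to 65.8) untreated and 38.0 CPM (34.6 to 41.6) with dTAG-13, which was 48.4% (40.1 to 58.0) and 41.6% (37.5 to 46.0) of its co-detecting level. Klf2 stood at 66.5 CPM (56.4 to 77.9) and 108 CPM (102 to 114), or 13.5% (11.4 to 15.8) and 29.3% (27.6 to 31). Outside the class Nanog was thus lower and Klf2 higher in the dTAG-13 library. The log2 ratio was −0.53 (−0.83 to −0.25) for Nanog and 0.69 (0.46 to 0.95) for Klf2. Over all Pim2-gated cells Klf2 was lower with dTAG-13 instead, at 230 and 154 CPM (−0.58; −0.68 to −0.47). Nanog was lower there too (−0.58; −0.80 to −0.38). The Klf2 direction thus depended on leaving out cells by their members, Klf2 among them. After thinning, Nanog was found in 25% (16.7 to 34.9) and 15.9% (12.7 to 19.6) of the Pim2-gated cells outside the class. Klf2 was found in 18.8% (11.5 to 28.0) and 33.5% (29.3 to 38.0). In Meox1-gated cells the same shares were at most 0.388% for Nanog and 1.55% for Klf2, at medians of 21238 and 21979 UMIs against 21330 and 23468 in the Pim2 gate.

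Over all Pim2-gated cells, thinned, both Nanog and Klf2 were found in 8.98% of untreated cells, where their 2 shares multiply to 8.99%, and in 7.95% of dTAG-13 cells, where they multiply to 6.75%. Outside the co-detecting class both were present in 5.21% of untreated cells against a product of 4.69%, and in 6.02% of dTAG-13 cells against 5.34%. Leaving out cells with 5 or more members removes cells that hold both genes, so the latter values do not show whether the genes occur independently. Outside the class, 27.8% (9.69 to 53.5) of untreated cells with Klf2 had Nanog, and of those without it 24.4% (15.3 to 35.4). With dTAG-13 these shares were 17.9% (12.3 to 24.9) and 14.9% (11.1 to 19.4). Of all Klf2 UMIs outside the co-detecting class, 26.1% untreated and 51.4% with dTAG-13 came from Pim2-gated cells, which were 1.68% and 7.84% of cells there. For Nanog these parts were 29.2% and 39.4%.

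Of the other members in those Pim2-gated cells, Dppa5a stood at 94.2 and 53.0 CPM, or 2.35% and 1.91% of its co-detecting level, and Dppa4 at 9.07 and 5.77 CPM, or 9.79% and 7.09%. Tdh stood at 3.89 CPM (1.78 to 7.38) and 10.5 CPM (8.70 to 12.5), and Morc1 at 0.86 and 0.84 CPM from 2 and 10 UMIs. Over all Pim2-gated cells Tdh was lower with dTAG-13 instead, at 151 and 68.1 CPM. In Sfn-gated cells outside the co-detecting class the members had a median of 2.45% and 2.30% of their co-detecting level. Dppa3 was among the higher ones there with dTAG-13, at 8.63 CPM (7.41 to 10.0) or 5.13% (4.39 to 5.97), and Zfp42 stood at 12.5 and 9.99 CPM.

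Summed over whole libraries the level of every member was higher in the dTAG-13 library, though by little. Under the 11 other settings run, 9 members stayed above 0, and Morc1 was −0.05 with each cell weighted equally. Ratios are dTAG-13 over untreated on the log2 scale with 1 CPM added to each level, which understates the change of low genes, and their intervals are from the counts without that addition. Nanog had the highest ratio, 0.60 (0.55 to 0.71), from 2028 and 3424 UMIs, while with 0.1 CPM added Esrrb led, at 0.69 against 0.63. Esrrb (0.55), Klf2 (0.52), Dppa3 (0.49), Zfp42 (0.46), Dppa4 (0.40) and Tdh (0.32) followed. Dppa5a (0.19) and Klf4 (0.17) were closer to 0, and the interval of Morc1 (0.06; −0.0040 to 0.13) held 0. The median of the members was 0.43, against 0.02 over 19473 genes tested. Nanog was the 1 member past 1.5-fold higher, a mark that 2.29% of genes passed, and no member was past 1.5-fold lower, which 0.842% of genes were. With TMM or DESeq2 scaling, or with 5 CPM added, no member passed it.

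Co-detecting cells, which the members themselves pick, held 9.94% of all UMIs untreated and 16.4% with dTAG-13. Of the difference in level between the libraries, 55.5% for Nanog and 52.3% for Klf2 lay outside this class, and at most 21.3% (Dppa3) for the others. At the untreated levels inside and outside this class, the dTAG-13 shares alone would give 677 CPM of Dppa5a, where 482 CPM was measured and 422 CPM was the untreated value. For Zfp42 the same sum is 92.1 CPM against 80.0 CPM measured. For Nanog it is 21.6 CPM against 22.5 CPM, and for Esrrb 4.59 against 4.62 CPM. Nanog and Esrrb stood slightly above that sum and the other 8 below it, such as Morc1, with 37.4 CPM against 24.1 CPM. Cells of over 60000 UMIs were 3 of the 504 untreated and 43 of the 759 dTAG-13 co-detecting cells. The sum was not redone without them. In the naive gate Dppa5a stood at 4249 and 3555 CPM without such cells, against 4213 and 3124 CPM with them.

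Within the naive gate most members were lower with dTAG-13. The size of this, and for some members its direction, rested on a few kinds of cells. The ratio was lowest for Morc1 (−0.52; −0.60 to −0.45), Dppa5a (−0.43; −0.45 to −0.41) and Klf2 (−0.41; −0.46 to −0.36). Klf4 (−0.35), Tdh (−0.35), Nanog (−0.27), Dppa3 (−0.25) and Zfp42 (−0.19) were also below 0 with intervals that excluded it. Dppa4 (−0.08; −0.19 to 0.03) and Esrrb (0.03; −0.16 to 0.22) had intervals that held 0. The median over members was −0.31 against 0.02 over 15200 genes. No member was past 1.5-fold either way, where 2.98% of genes were past it higher and 0.763% lower.

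Cells of over 60000 UMIs were 4 of the 440 untreated and 34 of the 640 dTAG-13 naive-gated cells, and without them the median ratio was −0.12. Cells with at least 3 UMIs of Pim2 or Sfn were a larger part of the dTAG-13 gate, since 349 untreated and 457 dTAG-13 cells remained without them, and the median ratio was then −0.021. Without both kinds of cells it was 0.0019. Klf2 (−0.15; −0.20 to −0.09), Dppa5a (−0.16; −0.18 to −0.14), Tdh (−0.11; −0.16 to −0.05) and Morc1 (−0.17; −0.26 to −0.09) were still lower there, while Zfp42 (0.09; 0.05 to 0.14), Esrrb (0.33; 0.14 to 0.55) and Dppa4 (0.13; 0.01 to 0.26) were higher. Klf2, Dppa3, Dppa5a, Tdh and Morc1 were below 0 under each of the 10 other settings run for this gate. Per cell, the 10th percentile of Dppa5a was 11.3 UMIs per 10000 in untreated naive-gated cells and the median 40.9, against 2.37 and 33.8 with dTAG-13. The lower tail differed more than the middle.

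**Figure D5:**
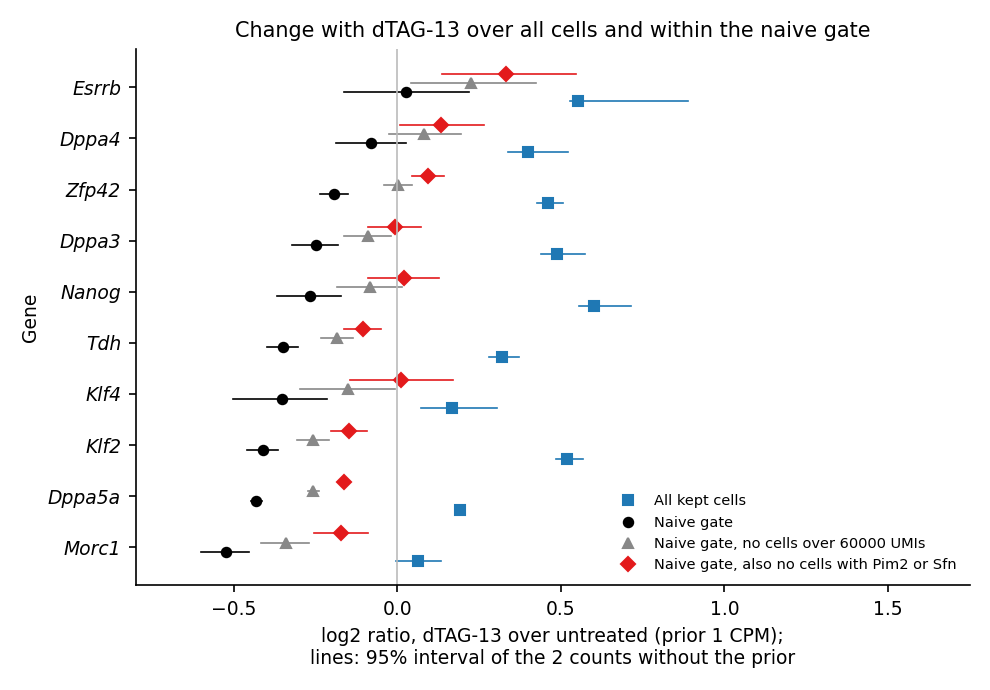
Log2 ratio of each member, dTAG-13 over untreated, over all kept cells (blue squares), in the naive gate (black circles), in that gate without cells of over 60000 UMIs (grey triangles) and also without cells with Pim2 or Sfn (red diamonds); lines are 95% intervals of the counts. The blue points lie above 0, the black points lie mostly below, and the red points scatter around it.

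Outside the co-detecting class 4 members were past 1.5-fold higher with dTAG-13, a mark passed by 2.94% of the 18752 genes tested, and none was past 1.5-fold lower, which 0.821% of genes were. Klf2 went from 4.68 CPM (4.31 to 5.07) to 19.7 CPM (19.0 to 20.5), a ratio of 1.87. Nanog went from 3.49 CPM (3.17 to 3.83) to 9.07 CPM (8.55 to 9.61), a ratio of 1.17. Dppa3 (1.20 to 3.59 CPM; ratio 1.06) and Tdh (1.22 to 2.85 CPM; 0.79) were the other two. Klf4 (0.11), Dppa4 (0.09) and Morc1 (0.10) had intervals that held 0. The 1 CPM added weighs most on such low levels. With it the ratios of Klf2, Nanog, Dppa3 and Tdh lie below their count intervals, such as 1.95 to 2.21 for Klf2. Without it Zfp42 (4.79 and 7.35 CPM) was 1.53-fold higher with dTAG-13. Esrrb (0.12 and 0.38 CPM, from 15 and 48 UMIs) was then 3.17-fold higher. Without cells of over 60000 UMIs the ratios of Klf2 and Nanog outside the class were 1.87 and 1.17 again. The members themselves set this class, which partly fixes their levels outside it. Cells with none of the 6 genes of the naive gate are not picked by members. In them the ratios were 1.71 for Klf2, 1.18 for Nanog, 1.09 for Dppa3 and 0.63 for Tdh. Dppa5a was at 0.06 (−0.0040 to 0.13) there, against 0.26 outside the class.

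Related genes were read against the same mark, which over whole libraries 2.29% of all genes tested passed higher and 0.842% lower. Of 16 other naive genes tested over whole libraries, 1 was past 1.5-fold higher and none lower, with a median ratio of 0.30. That gene was Klf5, a KLF factor of the naive network and of epithelia, at 12.3 and 23.2 CPM (0.87; 0.84 to 1.00). Of 12 general pluripotency genes 3 were higher and none lower, with a median of 0.30, namely Pou5f1 (72.9 and 124 CPM; 0.76), L1td1 (0.74) and Utf1 (0.63). Of 13 genes of the formative and primed epiblast 5 were higher and 1 lower, with a median of 0.15 and 7 of the 13 above 0. Among the higher ones were the DNA methyltransferase Dnmt3b (76.0 and 176 CPM; 1.20), Fgf5 (6.20 and 14.1 CPM; 1.07) and Otx2 (14.6 and 29.7 CPM; 0.98). Of 12 germ cell genes 2 were higher and none lower, Tfap2c (20.4 and 43.5 CPM; 1.05) and Prdm1 (3.51 and 7.54 CPM; 0.92), regulators of germ cell fate that are also used elsewhere. Of 7 other KLF genes 1 was higher, Klf7 (16.6 and 29.5 CPM; 0.80), and of the 2 genes of the 2-cell-like state tested none was past the mark.

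Inside the naive gate the formative list stood apart from the others. Of all genes tested in the gate 2.98% were past 1.5-fold higher and 0.763% lower. In the formative list 6 of 13 genes were past it higher and none lower, with a median of 0.33. They included Fgf5 (1.93 to 6.36 CPM; 1.33), Pou3f1 (19.2 to 37.1 CPM; 0.92), Car4 (4.97 to 9.77 CPM; 0.85) and Sox3 (4.57 to 8.92 CPM; 0.83). Epiblast-like markers, 5 in all and none at 0, summed to 376 CPM untreated and 453 CPM with dTAG-13 in this gate, and their part in these ratios was not tested. Of 10 other naive genes tested, and of 12 general pluripotency and 12 germ cell genes, none was past the mark in either direction, with medians of −0.13, −0.16 and −0.16. The naive genes Zfp57 (56.1 and 41.0 CPM; −0.44) and Dnmt3l (65.8 and 49.9 CPM; −0.39) were lower without reaching it. Of 7 other KLF genes Klf7 was higher (10.5 and 17.9 CPM; 0.71), and 1 gene of the 2-cell-like list was tested and was past the mark lower.

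Genes outside the list were ranked by how their level followed the number of members per cell, as the mean Pearson coefficient of the libraries over 6231 and 6688 cells among 13869 genes. The 10 leading genes were Rbmxl2 (0.80), Pou5f1 (0.77), L1td1 (0.77), Tdrd12 (0.74), Chchd10 (0.74), 1700097N02Rik (0.73), Utf1 (0.73), Gtsf1l (0.73), Dnah8 (0.72) and Hspb1 (0.72). Pou5f1 encodes Oct4 and Tdrd12 a Tudor protein of the piRNA pathway. They split by how far they reached beyond the naive gate. Pou5f1 stood at 534 and 482 CPM inside the gate and at 21.9 and 58.7 CPM outside the co-detecting class. Dnah8, an axonemal dynein gene, stood at 119 and 114 CPM inside and at 1.94 and 2.08 CPM outside. Rbmxl2 stood at 253 and 191 CPM inside and at 3.90 and 5.50 CPM outside, a ratio in the gate of −0.41, close to that of Klf2 and Dppa5a.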

How the data were processed

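Single-cell RNA was measured with the 10x Genomics Chromium 3′ v3.1 kit on live sorted cells of 1 untreated and 1 dTAG-13 pool, 10000 cells loaded each. The deposited values are whole-number UMI counts per gene and barcode, made by the authors with Cell Ranger 6.1.2 on mm10, per the submitters' processing notes. The labels do not state whether strand was used in counting. Of 32285 gene identifiers, 32158 matched GENCODE M21.

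The files hold 7276 untreated and 7873 dTAG-13 barcodes with 158002807 and 176677276 UMIs. Barcodes with under 1000 genes or over 10% mitochondrial UMIs (630 and 693) were removed. Scrublet (scanpy 1.11.5, Python 3.11.15) marked 1 and 0 doublets by its own threshold, too few to have worked, so the highest scores, 0.8% per 1000 barcodes, were removed (a further 415 and 492). The libraries share 14 barcodes.

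UMIs were summed per class of cells. Levels are CPM with exact Poisson intervals, shares have Clopper-Pearson intervals, and ratios use a prior of 1 CPM, with an exact conditional interval of the counts. A gene was tested with at least 10 UMIs, and called past 1.5-fold. Shares compared between classes were also computed after thinning to 5000 UMIs. edgeR 4.0.16 and DESeq2 1.42.0 (R 4.3.3) gave alternative scalings of the counts and no test. The steps were tested on simulated data. Text names all 10 members, up to 4 genes per list with the largest ratios and at least 5 CPM, and the 10 genes most like the member count. Members, gates and lists were chosen with earlier results of these data known, and the settings on cells of over 60000 UMIs and on Pim2 or Sfn were added after seeing the data.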

Additional observations from a re-analysis of the deposited data

Results flagged for a closer look

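In 6 members the dTAG-13 library was lower inside the naive gate and higher outside the co-detecting class, with counting intervals on opposite sides of 0. The difference between the 2 ratios was not tested, since each condition has 1 library. This pattern was looked for in the members only. Its share among all genes was not counted, so whether 6 members is unusual was not tested. For Klf2 the log2 ratio was −0.41 inside and 1.87 outside, −2.28 apart. For Nanog it was −0.27 and 1.17, −1.43 apart. Dppa3 (−0.25 and 1.06) was −1.31 apart and Tdh (−0.35 and 0.79) −1.14 apart. Zfp42 (−0.19 and 0.53) was −0.72 apart and Dppa5a (−0.43 and 0.26) −0.69 apart. The cells outside are set by the members themselves. In cells with none of the 6 genes of the naive gate, the Dppa5a ratio was 0.06 (−0.0040 to 0.13), an interval that held 0. Klf2, Nanog, Dppa3, Tdh and Zfp42 kept intervals above 0 there. Without cells of over 60000 UMIs and cells with Pim2 or Sfn in the gate, Zfp42 and Nanog were no longer lower inside it, and the interval of Dppa3 (−0.0081; −0.09 to 0.07) held 0. Klf2, Dppa5a and Tdh kept intervals below 0.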

How the results depend on the processing

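No paired analysis was possible because each condition has 1 library. Of 66 recomputed summary values 42 stayed the same by the rule used, and of 343 recomputed values of single members and gates 214 did. The gap in co-detecting share, 3.26 points, was 1.66 at 7 or more members and 1.03 after thinning to 5000 UMIs. The members' median ratio over whole libraries, 0.43, was 0.31 with a prior of 5 CPM and 0.36 with each cell weighted equally. The count past 1.5-fold higher, 1 (Nanog), was 0 with edgeR TMM scaling, DESeq2 size factors, a prior of 5 CPM or thinning, and 2 with a prior of 0.1 CPM, without any cell filter or without doublet removal. These scalings moved the median of all genes from 0.02 to 0.01 and 0.00. In the naive gate the median, −0.31, was −0.17 with at least 1 of 6 genes, −0.19 with at least 3, −0.16 after thinning, −0.12 without cells of over 60000 UMIs, −0.021 without cells with Pim2 or Sfn, and 0.0019 without both. Thinning turned Zfp42 to 0.059 and Klf4 to 0.12. Zfp42 was 0.0027 without the deep cells and 0.066 without cells with Pim2 or Sfn. Without both, Nanog was 0.019, Zfp42 0.094 and Klf4 0.012. The count past the mark in the gate, 0, was 1 without doublet removal. The median background over gates and libraries, 5.17% of the co-detecting level with co-detecting cells kept in the gates, was 1.21% with exclusive gates, 1.23% with co-detecting cells left out, 11.2% without doublet removal, 1.57% with 1.6% per 1000 barcodes removed, 1.16% without cells of over 60000 UMIs, and 0.99% without co-detecting and deep cells. The median background pools unlike gates. With co-detecting cells kept, the medians over members ran from 0.383% to 7.22% in the Meox1, Tbx6 and Sox17 gates. In the Pim2 and Sfn gates, which took in naive-gated cells, they ran from 15.4% to 35.6%. The causes were not tested. Depth limits Esrrb most, and the Tbx6 and Sox17 gates hold few cells.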
